A study of Mus musculus with 16 samples.

Results

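Isolated open chromatin regions are regions that stand far from every other region of the same list. They were taken from a list of 75363 regions mapped by ATAC-seq, a method that reads out where a transposase can reach the DNA between nucleosomes, in regulatory T cells (Treg cells, which hold immune responses in check). Regions on chromosomes 1 to 19 and X were sorted by start, and a region was kept when the gap to the previous and to the next region of its chromosome was at least 100 kb on both sides. The first and last region of each chromosome were left out. Of 75356 regions on these chromosomes, 646 met the rule, which is 0.857% (exact binomial 95% interval 0.793 to 0.926%, counting error only). All positions are on genome build mm9 and are 1-based.

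The cells were sorted as CD4+CD25+ Treg cells from 8 C57BL/6 mice. Each mouse gave 1 sample of a non-lymphoid tissue and 1 of its spleen, so that there were 16 samples in 8 groups of 2. VAT samples came from epididymal adipose tissue, muscle samples from injured skeletal muscle, and colon samples from the lamina propria in the groups titled Nrp1p and Nrp1n, and each of these 4 groups has a spleen group from the same animals. No engineered allele is named in the labels, and they give no ages. CD25, the alpha chain of the IL-2 receptor, is also carried by activated conventional T cells, so the sort by itself does not exclude them. The list has 1 set of positions for the whole series and no value per sample. No region can therefore be tied to a tissue, no replicate error can be given, the sequencing depth is unknown, and the Treg label could not be checked against marker genes.

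As background, open chromatin in mammalian cells gathers at promoters and at enhancers, and enhancers of active genes often lie in groups around the gene they act on. Stretches poor in genes, called gene deserts, hold few promoters, and open sites within them can be distal enhancers, sites bound by the architectural protein CTCF, or repeat elements. Enhancers can act over long distances, so a site far from other sites is not necessarily far from its target in the folded chromosome. Which of these kinds the isolated regions belong to was not tested, because the genes and the sequence at mm9 positions were not analysed here.

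The most isolated region of the list lay on chromosome 5 (58260014 to 58260171) and was 158 bp wide. Its neighbours were 3.76 Mb before it and 4.60 Mb after it. The second, on chromosome 4 (28740057 to 28740292), was 236 bp wide, with gaps of 2.47 and 3.17 Mb. Chromosome 5 also had the third (48763473 to 48763687), with a width of 215 bp and gaps of 2.45 and 3.18 Mb. None of these 3 regions had another region within 1 Mb, and the same was true of 20 isolated regions in all.

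The next 7 by the smaller of the 2 gaps were on chromosomes 19, 1, 1, 17, 14, 4 and 6. The chromosome 19 region (50358020 to 50358253) was 234 bp wide and had gaps of 2.26 and 2.70 Mb. On chromosome 1, a region of 212 bp (148653344 to 148653555) had gaps of 2.03 and 3.57 Mb, and one of 172 bp (48938337 to 48938508) had gaps of 1.91 and 2.45 Mb. These 5 regions with a smaller gap of at least 2 Mb, and the sixth just under it, were 158 to 236 bp wide, within the usual range of the list.

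The region on chromosome 17 (91027902 to 91028125) measured 224 bp, with 1.87 Mb before it and 3.13 Mb after it. On chromosome 14, a 239 bp region (84843165 to 84843403) had the most unequal surroundings of the 10, with 4.78 Mb before it and 1.61 Mb after it. A 197 bp region of chromosome 4 (91043170 to 91043366) had nearly equal gaps of 1.50 and 1.57 Mb. The tenth was a 171 bp region of chromosome 6 (44976388 to 44976558), with gaps of 1.36 and 2.22 Mb. None of the 10 had a width among the 12 frequent ones described further on, which 16.1% of all isolated regions had. With only 10 regions this is a description and not a trait of remote regions. Of the 56 isolated regions with a smaller gap of 500 kb or more, 13 (23.2%) had such a width.

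Most isolated regions were less remote. The smaller gap ran from 100.035 kb to 3.76 Mb with a median of 161 kb, and it was at least 200 kb for 236 regions, at least 500 kb for 56 and at least 1 Mb for 20. The larger gap had a median of 478 kb and reached 11.3 Mb. The gaps on the 2 sides were often unequal. The larger was a median of 2.24 times the smaller, it was more than 5 times the smaller in 139 regions (21.5%), and it was under 1.5 times the smaller in 188 (29.1%). The nearer neighbour was the previous region in 335 of the 646. These gaps are what the rule selected on and are given as a description.

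**Figure D1:**
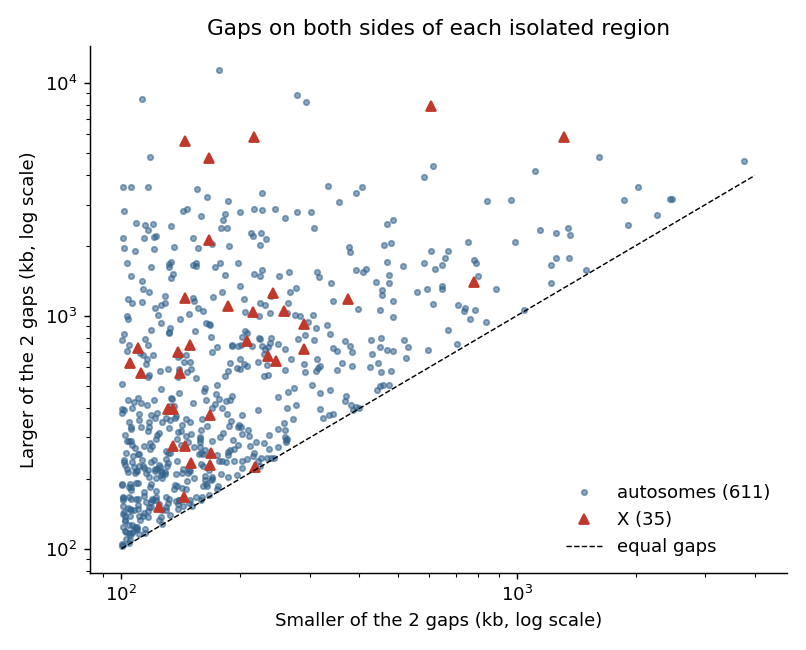
Larger gap (vertical axis, kb, log scale) against smaller gap (horizontal axis, kb, log scale) for each of the 646 isolated regions, 611 on autosomes (circles) and 35 on X (triangles); the dashed line marks equal gaps. Most points lie near the threshold of 100 kb on the horizontal axis and spread up to 11.3 Mb on the vertical one.

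At the threshold the members passed smoothly into regions that missed it. Just inside were 3 regions of chromosome 2 with smaller gaps of 100.035 kb (109857846 to 109858059), 100.077 kb (17766785 to 17767048) and 100.117 kb (79705577 to 79705737). Just outside were a region of chromosome 18 (21280559 to 21280753) at 99.984 kb, one of chromosome 5 (100651333 to 100651545) at 99.622 kb and one of chromosome 10 (97957125 to 97957293) at 99.452 kb. The widths of these 6 regions were 214, 264 and 161 bp inside and 195, 213 and 169 bp outside.

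Long gaps were a major part of the chromosomes. There were 3365 gaps of 100 kb or more, 4.47% of the 75336 gaps between neighbours, and they added up to 1702 Mb, or 66.4% of the span from the first to the last region of each chromosome. An isolated region stood beside 1138 of these long gaps (33.8%), which covered 652 Mb. The share was 28.1% for gaps of 0.1 to 0.2 Mb (466 of 1658), 38.2% for 0.2 to 0.5 Mb (352 of 922), 39.0% for 0.5 to 1 Mb (150 of 385), 44.8% for 1 to 3 Mb (142 of 317) and 33.7% for longer ones (28 of 83). Of the 5 longest gaps of the list, 3 had an isolated region at one end and 2 had none.

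The longest gap, 11.3 Mb on chromosome 14, began at an isolated region of 162 bp (88113452 to 88113613) that had its previous neighbour 176 kb away. The region at its far end (99431950 to 99432101) had a neighbour 7.14 kb further on. On chromosome 3, a gap of 8.88 Mb ended at an isolated region of 201 bp (50432357 to 50432557), whose next neighbour was 277 kb away. On chromosome 6, a gap of 8.56 Mb began at an isolated region of 181 bp (73317727 to 73317907), with the previous neighbour 113 kb away. Isolated regions thus stood at the border of these empty stretches, and the other end of each was a region with close neighbours.

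On average, the surroundings of isolated regions were sparse only nearby. The number of other regions per 100 kb, averaged over both sides, was 0 within 100 kb by the rule, 1.50 at 100 to 200 kb, 2.39 at 200 to 300 kb and 2.79 at 300 to 400 kb. The mean over the whole span was 2.94 per 100 kb. The steps from 400 kb to 3 Mb lay between 2.77 and 3.12, around that mean, and the first step at or above it began at 700 kb. Around all other regions the number fell from 8.96 per 100 kb next to the region to 4.15 at 900 to 1000 kb and 3.46 at 2900 to 3000 kb. A crowded stretch enters that second average once for each of its regions, so it lies above the mean of the span by construction. Within 500 kb, isolated regions had a median of 15 other regions (25th and 75th percentiles 5 and 28) and all others a median of 61 (41 and 83), and 258 of the isolated regions (39.9%) had more than 20. The largest number of regions within 500 kb of an isolated one was 90. Within 1 Mb the median was 42 for isolated regions and 103 for all others. Single regions departed from the average, as the larger gap was at least 500 kb for 317 isolated regions (49.1%).

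**Figure D2:**
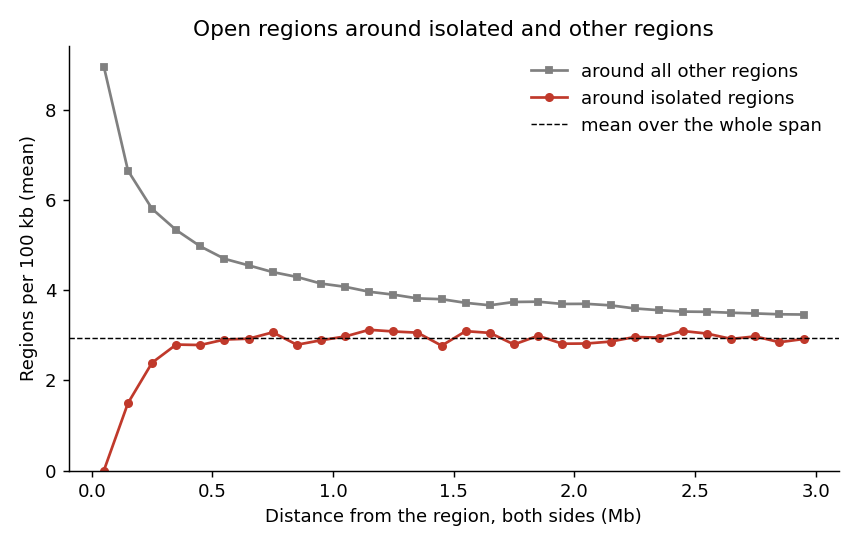
Mean number of other regions per 100 kb (vertical axis) by distance from a region on both sides (horizontal axis, Mb), around isolated regions (red) and all other regions (grey); the dashed line is the mean over the whole span, 2.94. The red line rises from 0 to 2.79 at 300 to 400 kb and then stays near the dashed line, and the grey line falls from 8.96 to 3.46.

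The regions across the gap were of several kinds. Of the 1292 flanks of isolated regions, the neighbouring region was itself isolated on 308 (23.8%). It was a region with no neighbour within 12.5 kb, but not isolated, on 424 (32.8%). On the remaining 560 (43.3%) it had a neighbour within 12.5 kb, and on 13 (1.01%) it belonged to a cluster of at least 10 regions, each within that distance of the next. Over all 6730 ends of long gaps, these shares were 19.2% isolated, 36.5% without a neighbour within 12.5 kb but not isolated, 44.3% with such a neighbour and 1.43% in a cluster of that size. A region across a long gap is the end of its own group by construction, and the 2 sets of ends overlap, so the shares were not tested. All regions of the list with no neighbour within 12.5 kb numbered 9696, of which the isolated ones made up 6.66%.

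Some isolated regions followed one another. A total of 378 (58.5%) had no isolated region as a neighbour. The neighbour across a gap was isolated on 23.8% of flanks, near the 19.2% of all long-gap ends, so runs are given as a description and not as a trait of the members. There were 84 runs of 2 isolated regions in a row, 22 runs of 3, 6 runs of 4 and 2 runs of 5. One run of 5 lay on X over 952 kb (125864123 to 126816360), after a gap of 5.65 Mb. Its members were 180, 180, 215, 185 and 295 bp wide, and the gaps between them were 145, 275, 135 and 397 kb. The other run of 5 lay on chromosome 3 over 753 kb (20489139 to 21242316), with widths of 150, 353, 175, 178 and 202 bp and gaps of 274, 145, 116 and 217 kb. In both runs the regions were strung out at intervals of 116 to 397 kb. Among the runs of 4 or 5, the one with the longest span had 4 regions over 3.25 Mb of chromosome 4 (89359578 to 92609275). It was picked after its span was seen, and it contains the ninth most isolated region. Shorter runs were not ranked by span, and some of them spanned more.

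Per length of chromosome, X was far below the autosomes in all regions but not in isolated ones. All regions ranged from 10.3 per Mb on X to 45.7 per Mb on chromosome 11, a factor of 4.45, which without X was 2.04 (from 22.4 per Mb on chromosome 14). Isolated regions ranged from 0.188 per Mb on chromosome 3 to 0.339 per Mb on chromosome 9, a factor of 1.80 with or without X. Among the autosomes the SD was 17.9% of the mean for all regions and 16.9% for isolated ones, so the autosomes varied to a like degree in both. The autosomes averaged 0.250 ± 0.0424 isolated regions per Mb (SD, n = 19 chromosomes). Chromosome 11, the most crowded, had 0.230 per Mb. X, the sparsest, had 0.210 per Mb, within the range of the autosomes and above 4 of them. How many regions meet the rule depends on how crowded a chromosome is, so these numbers are a description and were not tested.

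**Figure D3:**
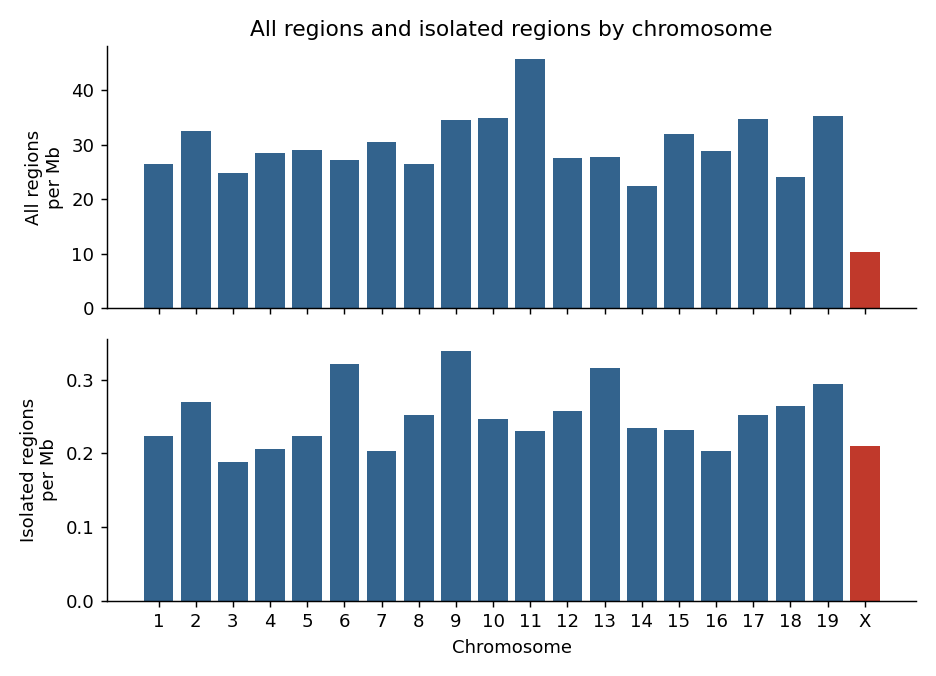
All regions per Mb (upper bars) and isolated regions per Mb (lower bars) on each chromosome, taking the last region's end as its length; X is red. The upper bars range from 10.3 to 45.7 and the lower ones from 0.188 to 0.339, and X stands out in the upper set only.

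As a share of its own regions, X had the most isolated ones, 35 of 1711 or 2.05% (exact binomial 95% interval 1.43 to 2.83%). The autosomes had 0.849% ± 0.182 (SD, n = 19), from 0.503% on chromosome 11 (28 of 5563) to 1.19% on chromosome 6 (48 of 4049). The most isolated region of X (84483659 to 84483810) was 152 bp wide and lay 1.32 Mb after its previous neighbour and 5.83 Mb before the next. The second (128822433 to 128822526) was 94 bp wide, with gaps of 0.781 and 1.40 Mb. The epididymal fat shows that the VAT mice were males with a single X, and the part that sex had in these numbers was not tested.

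Along the chromosomes, the distal end held the largest share of the other regions but not of the isolated ones. Cut into 4 equal lengths from the centromeric end on, the chromosomes held, in that order, 28.3, 24.1, 23.8 and 23.7% of the isolated regions and 21.1, 22.4, 25.2 and 31.3% of the others. Of 275 bins of 10 Mb, 229 held at least 1 isolated region. The most in a bin was 9, on chromosome 10 (10000001 to 20000000), which was picked by its value.

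Width was not used by the rule and could be compared. Isolated regions were 183.5 bp wide in the median (rank-based binomial 95% interval 177 to 188 bp) with quartiles of 160 and 221 bp, and all others a median of 191 bp (191 to 192 bp) with quartiles of 165 and 227 bp. These intervals treat regions as independent draws. Within chromosomes the median of isolated regions was lower on 14 of 20, with a mean difference, isolated minus other, of -5.93 bp (SD 10.6 over chromosomes). In an exact two-sided sign-flip test with the chromosome as the unit, p was 0.0236 and 0.0707 after Benjamini-Hochberg adjustment over the 3 width measures tested. The difference therefore did not pass the threshold of 0.05, and was smaller than the spread between chromosomes, which ran from -23.5 bp on chromosome 11 to 14 bp on chromosome 14. It did pass when the threshold was lowered to a gap of 50 kb on both sides (mean difference -5.825 bp, exact sign-flip adjusted p = 0.00152, 1752 regions). It did not pass at 200 kb (-5.875 bp, exact sign-flip adjusted p = 0.103) or at 500 kb (-1.625 bp, exact sign-flip adjusted p = 0.825).

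**Figure D4:**
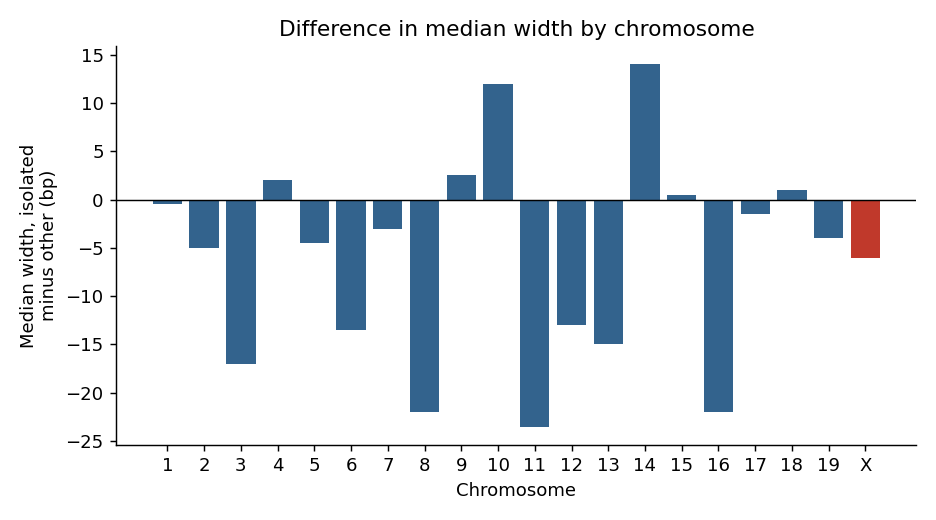
Median width of isolated regions minus that of all other regions (vertical axis, bp) on each chromosome; X is red. The difference is below 0 on 14 of 20 chromosomes, from -23.5 bp on chromosome 11 to 14 bp on chromosome 14.

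Wide regions were a minority in both sets. Of the 646 isolated regions, 88 (13.6%, exact 95% interval 11.1 to 16.5%) were wider than 250 bp, against 15.8% of the others (11814 of 74710). The mean difference over chromosomes was -2.68 percentage points (SD 7.55, lower on 12 of 20, exact sign-flip p = 0.129, adjusted 0.129), which did not pass the threshold. Split by the smaller gap, the share was 15.9% (65 of 410) at 100 to 200 kb, 11.7% (21 of 180) at 200 to 500 kb and 3.57% (2 of 56) at 500 kb or more. With the rule set at 200 kb the mean difference was -7.00 points (exact sign-flip adjusted p = 0.0209). At 500 kb it was -10.9 points (lower on 18 of 20, exact sign-flip adjusted p = 0.0241). The p-value at 500 kb is unreliable, because only 2 of the 56 regions were wider than 250 bp and most chromosomes held none. No region with a smaller gap of 500 kb or more was wider than 276 bp. Over all 646 isolated regions, width and smaller gap were nearly unrelated (Spearman's rho -0.0502), as were width and larger gap (-0.0733).

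Regions with a long gap on 1 side only have their other neighbour less than 100 kb away, often within 12.5 kb. They numbered 5431. Their median width was 186 bp, and 12.8% were wider than 250 bp (697). Against them the mean difference in median width was -0.45 bp (exact sign-flip p = 0.872) and that in the share of regions wider than 250 bp was 0.381 points, with the sign turned (exact sign-flip p = 0.838). Neither comparison passed the threshold, which does not show that the widths were alike. This comparison was added after the data had been seen.

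Broad regions were rare in both sets. Only 4 isolated regions (0.619%, exact 95% interval 0.169 to 1.58%) were 400 bp or wider, against 750 others (1.00%). The interval includes the share of the others, so no difference was shown, and none was tested. The widest isolated region, 451 bp, lay on chromosome 9 (58795927 to 58796377) with gaps of 261 and 293 kb. It had 26 other regions within 500 kb. The second, 444 bp, lay on chromosome 10 (125939322 to 125939765) with gaps of 431 and 367 kb. The third, 443 bp, lay on chromosome 18 (21458666 to 21459108), between gaps of 178 kb and 1.68 Mb. Its previous neighbour is the chromosome 18 region that missed the rule at 99.984 kb.

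The fourth was a 406 bp region of X (69061712 to 69062117) with gaps of 0.186 and 1.10 Mb, and the fifth a 378 bp region of chromosome 5 (21866315 to 21866692) with gaps of 574 and 140 kb. None of the 5 widest was among the 56 regions with a smaller gap of 500 kb or more. Those 56 were only 8.67% of the isolated regions, so this is a description and not a trait of wide regions. At the other end, 4 isolated regions had the smallest width of the list, 94 bp. They lay on X (the second most isolated of that chromosome), chromosome 14 (52085266 to 52085359), chromosome 13 (88968106 to 88968199) and chromosome 11 (42761775 to 42761868). A width of 100 bp followed, shared by 3 isolated regions, of which the one with the largest smaller gap lay on chromosome 11 (11139486 to 11139585).

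Many short regions of the list had exactly 1 of 12 frequent widths, which are 94, 100, 108, 116, 128, 130, 132, 134, 138, 140, 142 and 150 bp. Among isolated regions 104 (16.1%, exact 95% interval 13.3 to 19.2%) had such a width, and among all others 14.2% (10614). The mean difference over chromosomes was 2.50 percentage points (SD 6.84, higher on 13 of 20, exact sign-flip p = 0.119, adjusted 0.129), which did not pass the threshold. Compared only with other regions that had no neighbour within 1000 bp, of which 10.6% had such a width, the difference was 6.06 points (higher on 16 of 20, exact sign-flip adjusted p = 0.00163). Against the regions with 1 long gap, of which 14.7% had such a width, it was 1.98 points (higher on 10 of 20, exact sign-flip p = 0.210, adjusted 0.629). The first of these was the only one of 6 alternatives to pass.

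The 12 widths were not shared out alike. The width of 150 bp alone accounted for 63 isolated regions, or 9.75% (exact 95% interval 7.58 to 12.3%), and for 5.53% of the others (4132). The other 11 widths together accounted for 41 isolated regions, 6.35% (4.59 to 8.51%), and for 8.68% of the others. So 60.6% of the isolated regions with a frequent width were 150 bp wide, and 38.9% of the others with one. Among the remaining widths, 94 bp held 4 isolated regions (0.619%) and 1.80% of the others, and 134 bp held 7 isolated regions (1.08%) and 0.315% of the others. These single widths were looked at after the data had been seen and were not tested.

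Along the scale of distance, the 2 kinds of frequent width differed most among regions with close neighbours. The share of regions of exactly 150 bp was 5.92% at less than 0.2 kb from the nearest region, 4.93% at 5 to 12.5 kb, 9.04% at 50 to 100 kb, 10.2% at 100 to 200 kb, 8.33% at 200 to 500 kb and 10.7% (6 of 56) at 500 kb or more. The share with 1 of the other 11 widths was 17.1% at less than 0.2 kb, 3.56% at 5 to 12.5 kb, 4.97% at 50 to 100 kb, 5.61% at 100 to 200 kb, 6.11% at 200 to 500 kb and 12.5% (7 of 56) at 500 kb or more. At the most remote regions the 2 shares were thus within each other's counting error. The high share of 150 bp regions was thus already seen below the threshold of the rule. Median width was highest at 0.5 to 1 kb, with 196 bp, and 186 bp at 50 to 100 kb, next to 184.5 bp at 100 to 200 kb, 179.5 bp at 200 to 500 kb and 186.5 bp beyond. The width measures of isolated regions were therefore close to those of regions 50 to 100 kb from their nearest neighbour.

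**Figure D5:**
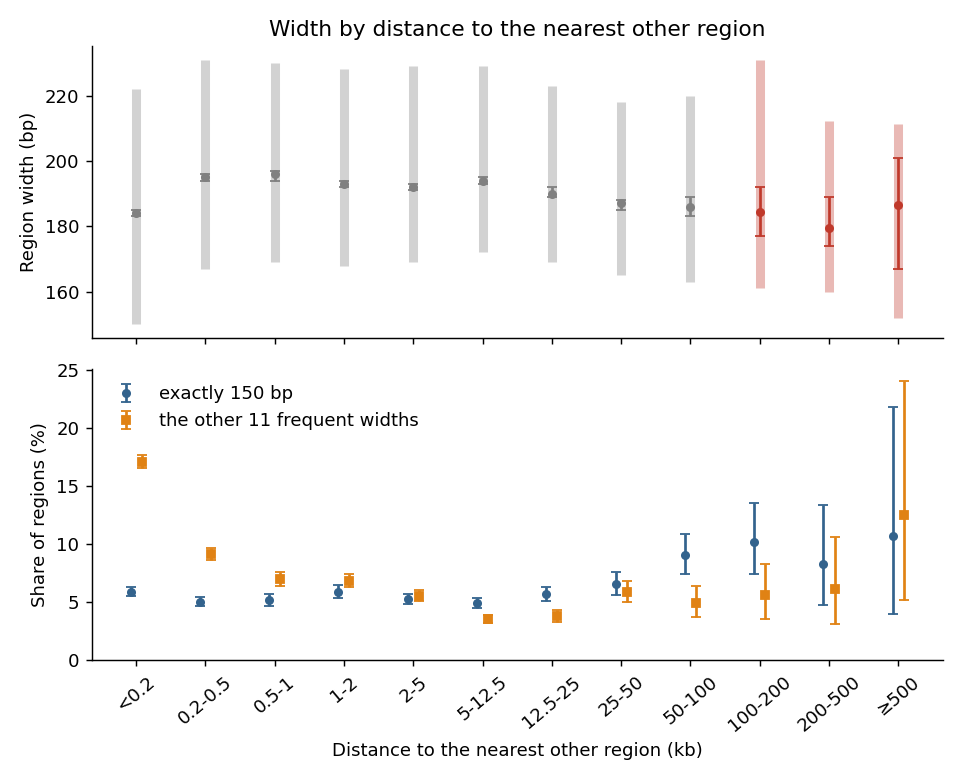
Upper panel: median width (points, with 95% intervals from binomial ranks) and quartiles (bars) in bp, by distance to the nearest other region in kb; isolated regions are the 3 red classes. Lower panel: share of regions (%) of exactly 150 bp (circles) and of the other 11 frequent widths (squares) with exact binomial 95% intervals; the circles rise from 4.93% at 5 to 12.5 kb to 10.2% at 100 to 200 kb, and the squares are highest, at 17.1%, at less than 0.2 kb.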

How the data were processed

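For the whole series the authors deposited 1 list of region borders in base pairs, per the file headers, without scores, counts or signal and without any column for a sample. HOMER 4.6, Picard 1.130, SAMtools 1.3, Bowtie2 2.2.4, cutadapt 1.8.3 and build mm9 appear, with no roles, in the submitters' processing notes. How samples were pooled, the calling threshold and the filters were not stated there. These steps decide which regions are listed and which gaps are empty. Groups were read from the sample titles.

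Gaps, widths and windows were computed with Python 3.11.15, numpy 2.4.6, pandas 2.3.3 and scipy 1.17.1, on scripts tested on simulated data. A width was called frequent when its count exceeded 5 times the median count of the widths up to 8 bp away (median at least 10). Tests were exact two-sided sign-flip tests over 20 chromosomes, whose p-values describe the layout of the list and not the spread between mice. The members, lists and tests were chosen with earlier results of these data known. Named regions were the 10 with the largest smaller gap, the 5 widest, the 5 narrowest, the 3 on each side of the threshold, the longest runs and 2 on X. The gene table supplied is of another build, GRCm38.p6. For that reason its positions were not used and regions were given no genes. Its last protein-coding gene ended before the last region on 9 of 20 chromosomes, which by itself does not tell builds apart. The planned comparison of tissues with spleen, the annotation and the sequence search were not run.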

Additional observations from a re-analysis of the deposited data

How the results depend on the processing

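No paired analysis was possible because values for single samples are not part of the list, and no replicate could be left out for the same reason. The alternatives for genes, sequence and tissues were not run. By construction, gaps of 50, 200 and 500 kb in place of 100 kb gave 1752, 236 and 56 regions, or 2.32, 0.313 and 0.0743% of the list. Merging neighbours under 1000 bp apart gave 796 isolated sites (1.48%), and leaving the 12 frequent widths out of the list gave 708 (1.10%). The share of isolated regions on X stayed between 5.36 and 7.29% in these settings, within the interval of the reported value. The difference in median width was negative in all 10 alternatives and passed 0.05 after adjustment in 3: at 50 kb (-5.825 bp), after merging (-15.35 bp, where wider sites are sites of several regions) and against others with no neighbour within 1000 bp (-6.475 bp). It was -0.95 bp without the frequent widths in the list. The difference in the share wider than 250 bp was negative in 9 of 10 and passed in 4, at 50 kb (-2.66 points), 200 kb (-7.00), 500 kb (-10.9) and after merging (-10.2). At 500 kb only 2 of 56 regions were that wide. The width of a merged site includes its inner gaps, so the merged differences depend in part on the crowding that the rule uses. Against regions with 1 long gap the difference in the share wider than 250 bp turned to 0.381 points. The difference in frequent widths was positive in all 6 and passed in 1, against others with no neighbour within 1000 bp (6.06 points). The cause of these changes was not tested. Depth is unknown, so an empty gap was not shown to be closed chromatin.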

Other observations

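Small groups of regions also stood alone. When regions less than 1 kb apart were joined, 150 further sites of 2 to 5 regions were at least 100 kb from everything else, beside the 646 single ones. Of these, 116 were pairs. The inner gap of the pairs had a median of 232 bp and ran from 2 to 979 bp, and in 52 pairs it was under 200 bp. The wider member of a pair had a median width of 211 bp and the narrower one 158.5 bp. Of the 232 members, 49 (21.1%) had 1 of the 12 frequent widths. In the whole list, 23.05% of regions less than 200 bp from their nearest neighbour had such a width. The share was 14.2% at 200 to 500 bp and 12.2% at 500 to 1000 bp. The share in pairs is therefore not given as a trait of pairs, and it was not tested. Single regions made up 81.2% of the isolated sites and 72.1% of all sites joined in this way.

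Joined at 12.5 kb, 982 sites were at least 100 kb from everything else. Of these, 646 were the single isolated regions and 336 were groups of 2 or more regions. Only 4 groups held 10 or more regions. The largest held 24 regions over 84.0 kb of chromosome 14 (54795325 to 54879322), between gaps of 133 and 101 kb. Next came 15 regions on chromosome 1 (95931540 to 95988664), spanning 57.1 kb. Groups of 10 regions lay on chromosome 13 (9748696 to 9776316) and chromosome 18 (64648029 to 64691158), the latter between gaps of 628 and 356 kb. The genes at these positions were not assigned. These groups were looked at after the data had been seen.

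Chromosome Y, which the rule leaves out, held 7 regions, none of which had a gap of 100 kb on both sides. Among the first and last regions of the other chromosomes, 7 of 40 had their only neighbour at least 100 kb away.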
